A study of Mus musculus with 6 samples.

Results

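Wnt ligands, their receptors, their secreted antagonists and the genes that read out the pathway were followed in RNA-seq of primary mouse embryonic fibroblasts (pMEFs), the connective-tissue cells that grow out of dissociated embryos. The members were the rows of the count table whose gene symbol belongs to one of the families Wnt, Fzd, Sfrp, Dkk, Rspo, Ror or Nkd, or is Lrp5, Lrp6, Frzb, Wif1, Lgr4, Lgr5, Lgr6, Axin2, Lef1, Tcf7, Notum or Porcn. This rule used no measured value and gave 51 of the 17512 genes in the table. By role they were 14 ligand genes (with Porcn, the enzyme that acylates Wnts), 14 receptors, 11 secreted antagonists, 7 R-spondins and R-spondin receptors, and 5 effector or feedback genes. Wnt1, Wnt3a, Wnt7a, Wnt8a, Wnt8b and Wnt9b fit the rule by name but were not analysed here.

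Wnt proteins are lipid-modified secreted signals that bind Frizzled receptors on a neighbouring cell. With the co-receptors LRP5 and LRP6 they stop the breakdown of beta-catenin, which enters the nucleus and works with the TCF and LEF factors, whereas Wnts that act through ROR receptors steer cell polarity and movement without beta-catenin. Secreted frizzled-related proteins and several Dickkopf proteins dampen the signal outside the cell, and R-spondins strengthen it through LGR receptors. Embryonic mesenchyme is a well known source and target of Wnts, which pattern limb, skin and skeleton.

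The study compared 3 HAT1 WT lines, 36, 47 and 78, with 3 HAT1 KO lines, 33, 41 and 72, all on a C57bl6 background and with no treatment. HAT1 acetylates newly made histone H4. The lines came from mid-gestation embryos freed of internal organs and were grown in DMEM with serum, so they are mixed cultures of embryo tissue, and the deletion was present in every cell from the start of development. Each line was 1 replicate, and since the labels give neither litter nor sex, p-values measure only the spread between these lines. Levels are given as CPM, which scales the counts to a common library size after TMM normalization, always in the order HAT1 WT lines 36, 47 and 78, then HAT1 KO lines 33, 41 and 72. Differences are log2 fold changes of HAT1 KO over HAT1 WT from edgeR's quasi-likelihood test, with p-values adjusted by Benjamini-Hochberg over all 14773 genes with enough counts for a test.

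Facts of the whole series bear on what follows. Libraries held 67720628 to 98786746 counts, at which 3 counts correspond to 0.0303 to 0.0444 CPM. Hat1 itself stood at 17.4, 23.04 and 20.1 CPM in HAT1 WT and 10.2, 10.03 and 10.3 CPM in HAT1 KO lines, a log2 fold change of -0.99 (SE 0.12) with an edgeR adjusted p of 0.0376, and of 0.0587 to 0.23 when any 1 line was left out. The counts do not show from which part of the gene the remaining reads came. KO line 72 stood apart: its mean Pearson correlation with the other lines over log2 CPM of all tested genes was 0.958, against 0.974 to 0.979 for the other 5. All 10 macrophage markers were lower in HAT1 KO lines at an unadjusted p under 0.05, 7 of them at an adjusted p under 0.05, and their summed level was 4806 to 5198 CPM in HAT1 WT and 2326 to 2857 CPM in HAT1 KO lines. The 8 fibroblast markers summed to 41850 CPM in KO line 72 and to between 58300 and 75260 CPM in the other lines. The 6 epithelial markers summed to 1.10 to 2.49 CPM, and Epcam did not pass 0.0888 CPM. Y-linked genes were found in WT lines 36 and 47 (183 and 160 CPM, summed over 4 genes) and stood at 2.34 CPM or less in the other 4 lines. Xist, the X-inactivation gene, stood at 1.25, 14.6 and 298 CPM in HAT1 WT and 154, 191 and 146 CPM in HAT1 KO lines. All 6 proliferation markers had a positive log2 fold change, 3 of them at an unadjusted edgeR p under 0.05 and 0 at an adjusted one. Their sum was 279, 443 and 302 CPM in HAT1 WT and 642, 518 and 404 CPM in HAT1 KO lines. The sequencing lane also differed, being 8, 6 and 7 for the HAT1 WT and 6, 7 and 6 for the HAT1 KO lines. Lane 8 held WT line 36 alone, so fits with lane as a factor draw the genotype difference from the other lines only. In bulk RNA, fewer cells of a type and less RNA per cell cannot be told apart.

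Promoter sequence was read for the members to show which of them carry, next to their start, the letters that TCF and LEF factors prefer. RefSeq windows on GRCm38.p6, from 250 bases before to 50 bases after each start, were found for 33 of the 51 members, in 40 windows. Searched on both strands were the heptamers AACAAAG, present in 3 member windows (5.85% of all windows), ATCAAAG, present in 2 (3.73%), TACAAAG, present in 1 (3.63%), and TTCAAAG, present in 1 (5.14%). Any of them occurred in 6 of the 40 windows (15%), against 16.9% of all 32851 windows. The member windows were richer in G and C, with a median of 66.2% against 52.7%, and held a median of 24 CpG pairs against 7. The tested members with a heptamer were the receptor gene Fzd7, the ligand genes Wnt5b and Wnt11, and Lef1, which itself encodes one of these factors and has it in 1 of 4 windows. Their stretches are printed 5′ to 3′ on the gene's strand, with the heptamer in capitals. In Wnt5b it lies on the opposite strand and reads CTTTGAT.
Fzd7, chr1:59481990-59482050, strand +: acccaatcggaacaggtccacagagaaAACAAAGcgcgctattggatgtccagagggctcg
Lef1, chr3:131156120-131156180, strand +: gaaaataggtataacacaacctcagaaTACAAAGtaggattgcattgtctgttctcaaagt
Wnt5b, chr6:119449424-119449484, strand -: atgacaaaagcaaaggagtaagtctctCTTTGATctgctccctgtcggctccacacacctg
Wnt11, chr7:98835034-98835094, strand +: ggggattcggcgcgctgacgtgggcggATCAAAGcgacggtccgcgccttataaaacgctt
The heptamer begins 130 bases before the start that defines its window in Fzd7, 147 in Lef1, 71 in Wnt5b and 51 in Wnt11. In Lef1 (chr3:131110471-131224356) and Wnt5b (chr6:119432531-119544347) that start lies inside the gene. The windows of both genes at the outermost start carried no heptamer. Of the untested members, Wnt3 and Dkk1 also carried such letters. A match is a description of the letters in the window, and the absence of one says only that they are not in it.

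Of the 51 members, 44 had enough counts to be tested. The other 7, Wnt3, Wnt7b, Fzd10, Dkk1, Dkk4, Sfrp5 and Rspo4, had at most 12 counts in any library. None of the 44 tested members passed an adjusted p of 0.05 in edgeR, where 78 of 14773 genes did (0.528%), and none did with DESeq2 or voom either. At an unadjusted p under 0.05, edgeR called 0 members against 14.6% of all genes (8.77% lower and 5.88% higher in HAT1 KO), while DESeq2 called 4 (Wnt5a, Fzd2, Rspo3 and Lgr6) against 16.6% of all genes and voom 1 (Fzd2) against 17.7%. The lowest member p was 0.060, for Fzd2, with an adjusted p of 0.364. By the study's own cut-offs, 1.5-fold with an unadjusted p under 0.05, 0 members were lower (4.62% of all genes) and 0 were higher (1.5% of all genes). At an unadjusted p under 0.1 there were 9 members of 44 (20.5%), against 22.7% of all genes.

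These counts depended on single lines. Without WT line 36, 1 member (Lef1) passed an unadjusted p of 0.05, and without KO line 72 it was Fzd2, where the share of all genes was 9.58% and 18.5%. Without KO line 33 there were 7 members against 12.4% of genes, and without KO line 41 there were 8 against 13.7%. No member passed an adjusted p of 0.05 in any of these fits.

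The lack of calls did not come with small differences alone. Of the 44 members, 9 were past 1.5-fold with no regard to p, against 14.1% of all genes. Of these, 8 were higher in HAT1 KO (5.63% of all genes) and 1, Sfrp1, was lower (8.49%). Lef1 was the only one of the 9 whose genotypes did not overlap. For Wif1, Rspo1 and Nkd2 the sign turned without KO line 72. The median absolute log2 fold change was 0.21 over members and 0.164 over all genes, and 30 of 44 members had a value above 0 (51.5% of all genes had one), with a median of 0.14 against 0.0085. The 95% interval of the fold change lay wholly within 1.5-fold in either direction for 11 of the 44 members (25%), against 52.9% of all tested genes. For the other 33 a difference of 1.5-fold lay inside the interval.

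**Figure D1:**
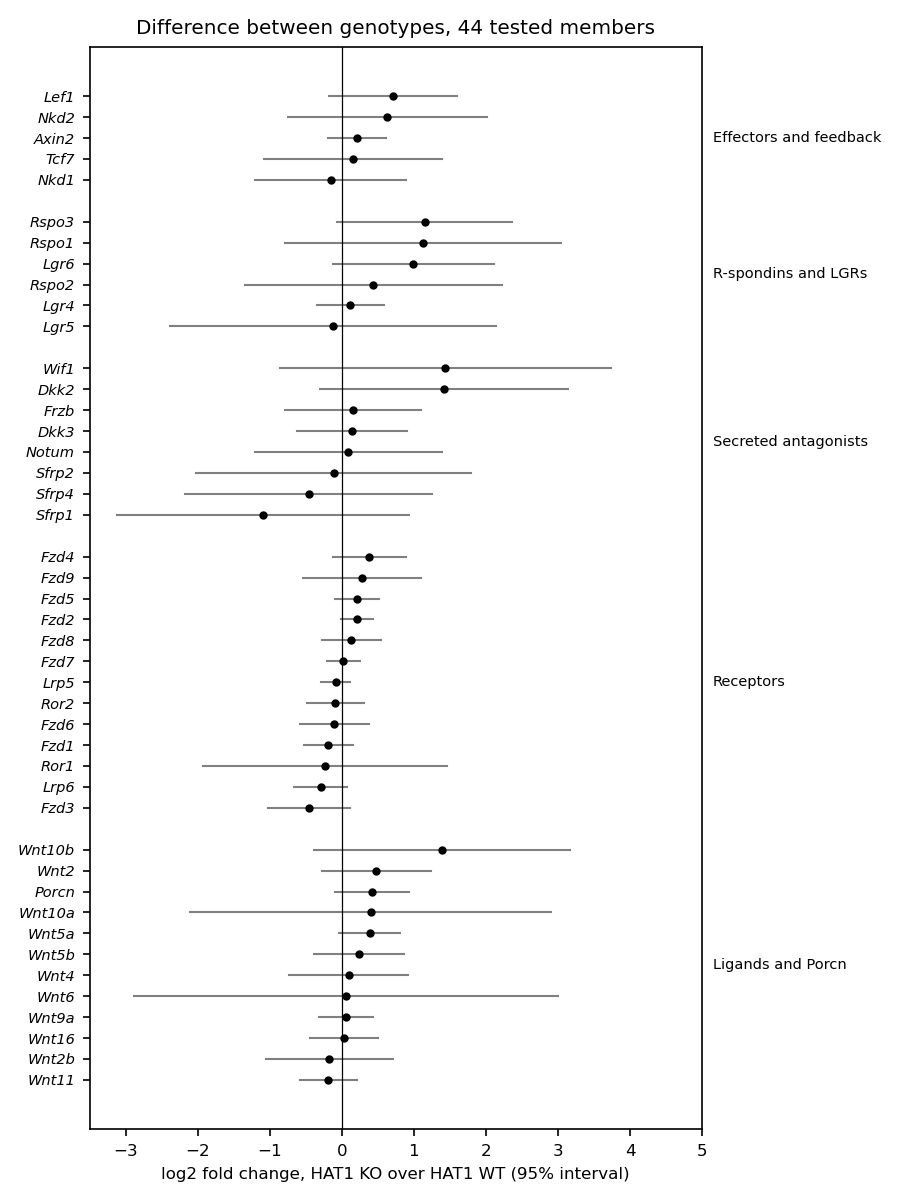
Each point is the log2 fold change of HAT1 KO over HAT1 WT for 1 of 44 tested members, grouped by role, and each bar its 95% interval from the edgeR fit of 3 against 3 lines. Receptors such as Fzd7 have short bars around 0, whereas Wif1, Sfrp1 and Lgr5 have bars that span several log2 units, and every bar crosses 0.

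Among the ligands, Wnt5a was the most abundant per length, with 22.2 ± 5.21 CPM per kb of exon (mean ± SD over 6 lines), followed by Wnt4 with 7.38 ± 2.26. WNT5A is the classic ligand of the ROR receptors and directs limb and body-axis outgrowth. The gene (chr14:28504750-28527448, GRCm38) stood at 151, 139 and 162 CPM in HAT1 WT and 165, 173 and 253 CPM in HAT1 KO lines. All 3 HAT1 KO lines were above all 3 HAT1 WT lines, but KO lines 33 and 41 were only just so and KO line 72 was highest by far. The log2 fold change came to 0.39 (SE 0.18), with an edgeR adjusted p of 0.382, and without KO line 72 it was 0.18. With lane as a factor it was 0.37. A gene on the opposite strand, Gm2670, shares 4.58% of its exon bases, and strand use is not given in the sources used here.

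Wnt4, a ligand needed for kidney tubule formation, stood at 23.7, 28.1 and 37.97 CPM in HAT1 WT and 34.9, 43.3 and 17.8 CPM in HAT1 KO lines. The genotypes overlapped, with KO line 41 highest and KO line 72 lowest, and the log2 fold change came to 0.095 (SE 0.34) with an edgeR adjusted p of 0.9205. Wnt5a made up 49.1% to 52.0% of the summed CPM per kb of all ligand genes apart from Porcn in 5 lines, and 64.8% in KO line 72, while Wnt4 made up 15.2% to 23.2% and 8.48%.

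Wnt10a and Wnt10b, paralogous ligands of skin, tooth and bone, were low but among the most uneven members. Wnt10b stood at 0.928, 0.733 and 0.263 CPM in HAT1 WT and 1.26, 0.577 and 3.202 CPM in HAT1 KO lines, and Wnt10a at 0.875, 1.02 and 0.121 CPM in HAT1 WT and 0.606, 0.148 and 1.89 CPM in HAT1 KO lines. Both were highest in KO line 72 and lowest in WT line 78, and for Wnt10a KO line 41 lay almost as low as WT line 78. Their log2 fold changes were 1.39 (SE 0.73) and 0.40 (SE 1.03), with edgeR adjusted p of 0.447 and 0.8905. Without KO line 72 they were 0.54 and -0.79. Wnt6, whose gene lies 6.19 kb from Wnt10a on chromosome 1, had 0 counts in KO line 72, which allows up to 0.0389 CPM there, and 0.0296 to 0.404 CPM in the other lines.

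Porcn, whose product attaches the lipid that all Wnts need for release, stood at 4.02, 4.198 and 4.45 CPM in HAT1 WT and 4.63, 4.91 and 7.43 CPM in HAT1 KO lines. The genotypes did not overlap, though WT line 78 and KO line 33 were close, and the log2 fold change came to 0.42 (SE 0.21) with an edgeR adjusted p of 0.426. Without KO line 72 it was 0.19. Porcn is X-linked. The Y-linked genes given above were found in 2 of the 3 HAT1 WT lines. They summed to 0.118 CPM or less in the HAT1 KO lines. Against WT line 78 alone, without WT lines 36 and 47, the log2 fold change of Porcn was 0.36. The part of sex in this difference was not tested. The remaining tested ligand genes, Wnt2, Wnt2b, Wnt5b, Wnt9a, Wnt11 and Wnt16, had log2 fold changes from -0.19 (Wnt11) to 0.48 (Wnt2), and for Wnt9a and Wnt16 the 95% interval lay within 1.5-fold. In all, 10 of 12 tested ligand genes, Porcn among them, had a positive value, against 51.5% of all genes, with a median log2 fold change of 0.17. Of the positive ones, Wnt4, Wnt6, Wnt9a, Wnt10a and Wnt16 turned sign in at least 1 fit with a line left out.

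**Figure D2:**
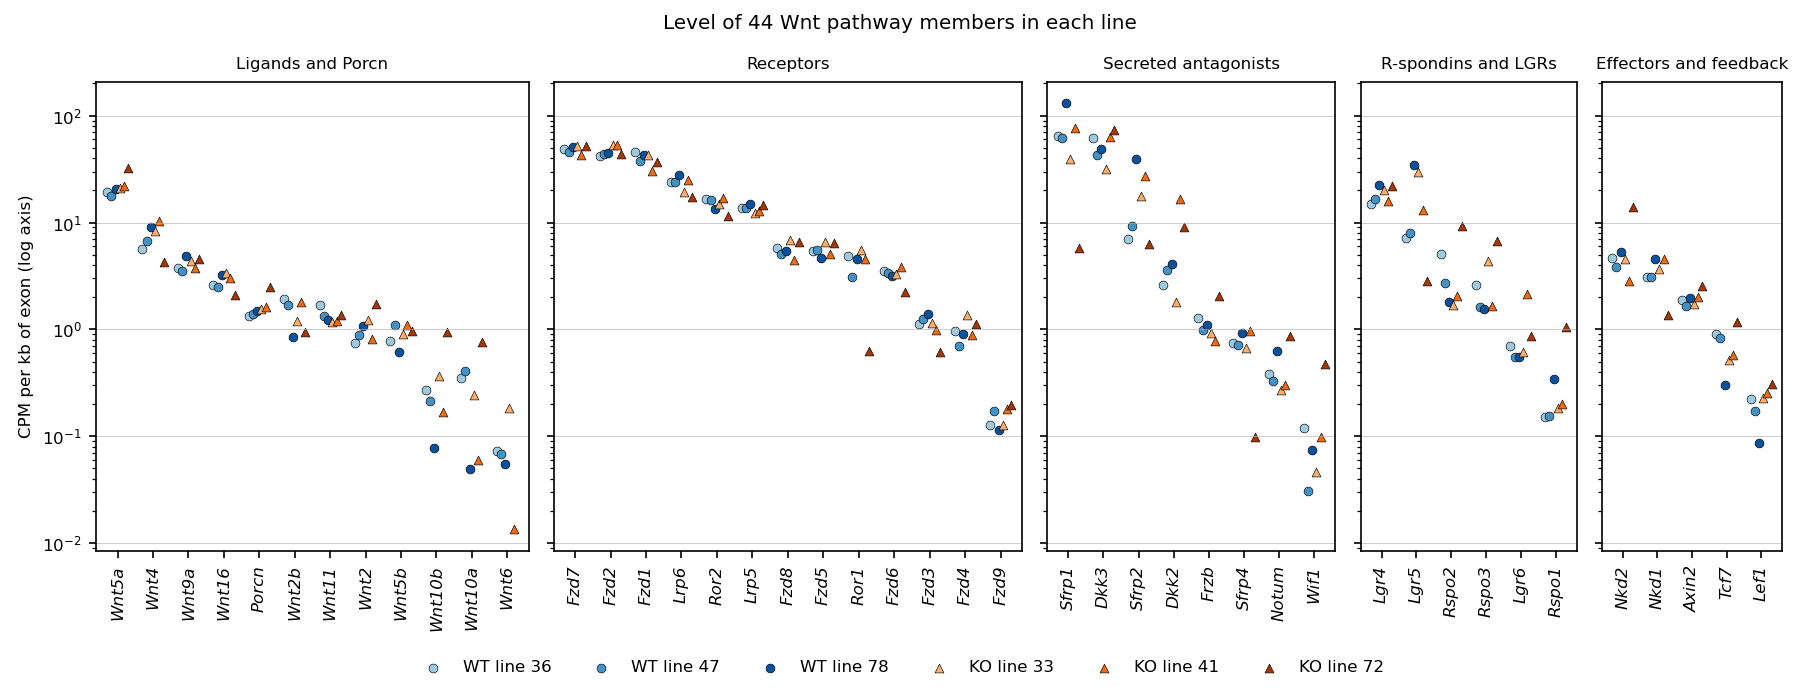
The level of each tested member is plotted per line as CPM per kb of exon on a log axis, with circles for HAT1 WT and triangles for HAT1 KO lines and members ordered by mean level within each role; a line at 0 (Wnt6 in KO line 72) has no point. Points of Fzd7, Fzd2 and Lrp5 lie close together, while KO line 72, the darkest triangle, stands off from the other lines for Sfrp1, Sfrp4, Ror1, Nkd2 and Wif1.

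The receptors were the most even group, with a median ratio of highest to lowest line of 1.53. The frizzleds are seven-pass receptors that bind Wnts, and Fzd7 and Fzd2 led with 48.8 ± 3.62 and 46.8 ± 5.04 CPM per kb, ahead of Fzd1 with 39.4 ± 5.48. Neither Fzd7 nor Fzd2 passed an unadjusted p of 0.05 in the edgeR fit of all lines. Fzd7 stood at 221, 207 and 230.5 CPM in HAT1 WT and 236, 196 and 236 CPM in HAT1 KO lines, so the highest line was 1.203 times the lowest. The genotypes overlapped throughout, and the log2 fold change came to 0.021 (SE 0.096), with a 95% interval of -0.21 to 0.25 and an edgeR adjusted p of 0.938.

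Fzd2 (chr11:102604396-102608058) stood at 153, 161 and 163 CPM in HAT1 WT and 196, 194 and 162 CPM in HAT1 KO lines. KO lines 33 and 41 were above all HAT1 WT lines, and KO line 72 lay among them. The log2 fold change came to 0.21 (SE 0.091), with a 95% interval of -0.012 to 0.43 and an edgeR adjusted p of 0.364. Without KO line 72 it was 0.30, with an unadjusted edgeR p of 0.00352 and an adjusted p of 0.118. Over all lines it was 0.27 with voom, at an unadjusted p of 0.0075 and an adjusted p of 0.133. With DESeq2's Wald test it was 0.22, at an unadjusted p of 0.0485 and an adjusted p of 0.276.

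LRP5 and LRP6 are the co-receptors of the beta-catenin branch. Lrp6 stood at 325, 329 and 380.2 CPM in HAT1 WT and 265, 343 and 237 CPM in HAT1 KO lines and Lrp5 at 135, 132 and 144 CPM in HAT1 WT and 120.4, 126 and 142 CPM in HAT1 KO lines. KO lines 33 and 72 were the lowest for Lrp6 and KO line 41 lay among the HAT1 WT lines, with a log2 fold change of -0.29 (SE 0.15) and an edgeR adjusted p of 0.435. For Lrp5 it was -0.083 (SE 0.083), with a 95% interval of -0.28 to 0.12. Of the ROR receptors, which bind WNT5A, Ror2 was spread by 1.505-fold over the lines, whereas Ror1 stood at 27.8, 17.7 and 26.5 CPM in HAT1 WT and 31.8, 26.1 and 3.63 CPM in HAT1 KO lines. Ror1 in KO line 72 was 0.137 times the median of the other 5 lines, and the other 2 HAT1 KO lines lay close to the HAT1 WT lines. Of the 13 tested receptors, 6 had a positive and 7 a negative log2 fold change, from -0.45 for Fzd3 to 0.38 for Fzd4, and 8 had a 95% interval within 1.5-fold. Summed over all receptors, the level was 194 to 220.1 CPM per kb in every line.

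The secreted antagonists were the most uneven group, and some of them, such as Sfrp1 and Dkk3, were among the most abundant members while others were rare. SFRP1, a decoy that carries a frizzled-like domain and binds Wnts, was encoded by the leading antagonist gene per length, at 63.2 ± 41.9 CPM per kb. Sfrp1 (chr8:23411502-23449632) stood at 280.3, 272 and 577 CPM in HAT1 WT and 170.4, 335 and 25.01 CPM in HAT1 KO lines. WT line 78 was highest and KO line 72 lowest, 23.1-fold apart, and KO line 41 lay above 2 of the HAT1 WT lines. The log2 fold change came to -1.09 (SE 0.84), with a 95% interval of -3.12 to 0.93 and an edgeR adjusted p of 0.597, and without KO line 72 it was -0.57.

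Dkk3, a divergent member of the Dickkopf family, stood at 206, 143 and 164 CPM in HAT1 WT and 107, 213 and 247 CPM in HAT1 KO lines. KO line 33 was lowest and KO line 72 highest, with HAT1 WT lines between them, and the log2 fold change came to 0.14 (SE 0.31) with an edgeR adjusted p of 0.872. The antagonists of KO line 72 had another make-up than those of the other lines. Sfrp1 made up 41.1% to 58.2% of their summed CPM per kb in the other 5 lines and 5.82% in KO line 72, while Dkk3 made up 21.5% to 44.6% and 74.9%. The summed level itself ran from 92.4 CPM per kb in KO line 33 to 227 in WT line 78, and KO line 72 was within that range at 98.2.

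Wif1, which encodes another secreted Wnt-binding protein, was rare, at 0.292, 0.0745 and 0.182 CPM in HAT1 WT and 0.112, 0.237 and 1.14 CPM in HAT1 KO lines. It was 0.292 CPM or less in 5 lines and higher in KO line 72, so that its log2 fold change of 1.44 (SE 0.95) became -0.068 without that line, with an edgeR adjusted p of 0.537 over all 6. Dkk2, which binds LRP5 and LRP6, stood at 9.68, 13.3 and 15.03 CPM in HAT1 WT and 6.65, 61.7 and 33.5 CPM in HAT1 KO lines. KO lines 41 and 72 were above all HAT1 WT lines and KO line 33 below them, and the log2 fold change came to 1.42 (SE 0.71) with an edgeR adjusted p of 0.424. It was 0.66 without KO line 41 and 1.91 without KO line 33, the latter at an unadjusted edgeR p of 0.00122 and an adjusted p of 0.13. Sfrp4 was 2.82 to 4.05 CPM in 5 lines and 0.415 CPM in KO line 72. Sfrp2 was 15.00, 20.04 and 84.2 CPM in HAT1 WT and 38.4, 58.5 and 13.6 CPM in HAT1 KO lines, highest in WT line 78 as Sfrp1 was. Of 8 tested antagonists 5 had a positive and 3 a negative log2 fold change, and no 95% interval lay within 1.5-fold. Dkk1, the best known LRP6 blocker, was untested, with 12 counts or fewer per line.

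**Figure D3:**
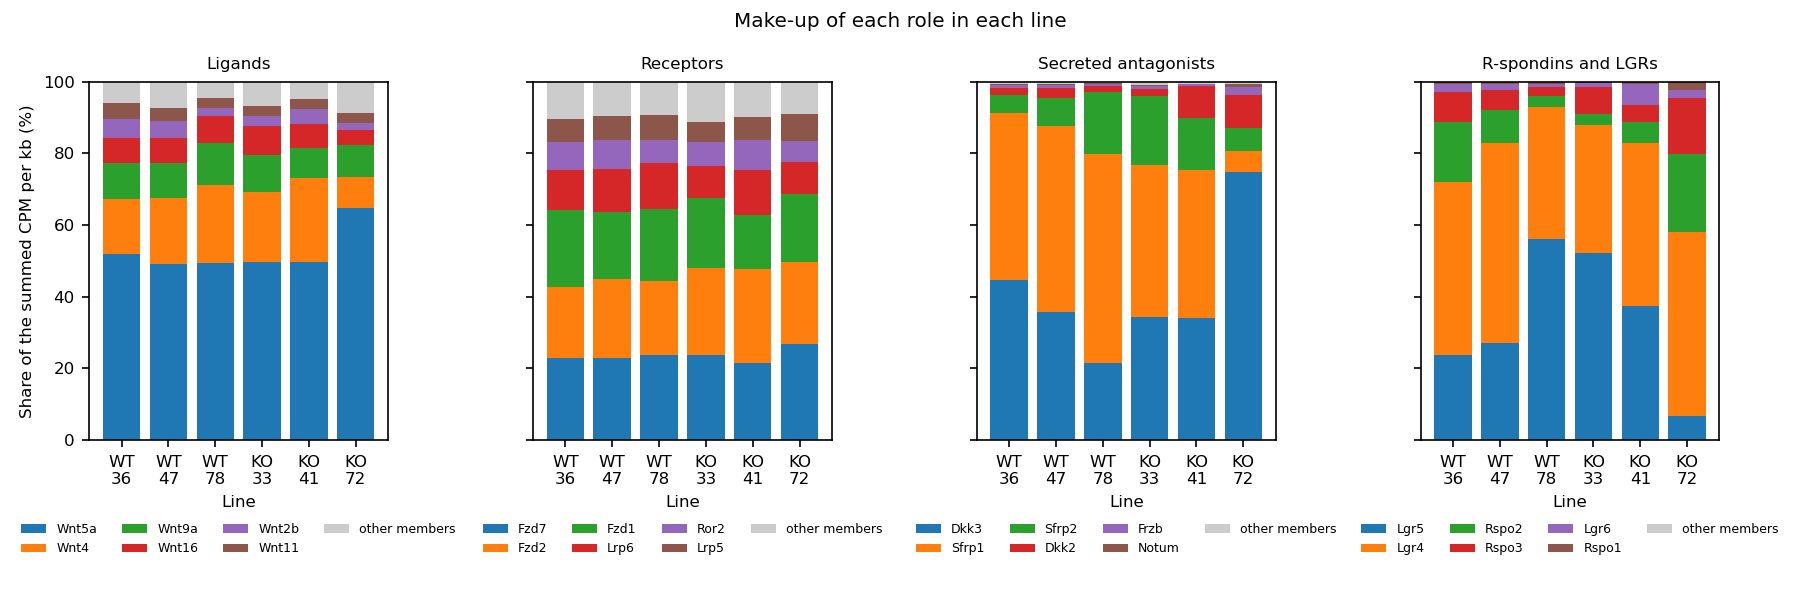
Stacked bars give, for each line, the share of the summed CPM per kb of exon that each leading member takes within the ligands (without Porcn), receptors, antagonists and R-spondin group, with grey for all other members. The receptor bars are alike in every line, whereas in KO line 72 Sfrp1 takes 5.82% of the antagonists and Lgr5 6.63% of the R-spondin group.

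R-spondins act through LGR4, LGR5 and LGR6, which draw the ubiquitin ligases RNF43 and ZNRF3 away from frizzled receptors. Lgr4 and Lgr5 led this group with 18.7 ± 3.38 and 15.8 ± 12.9 CPM per kb. Lgr4 stood at 86.98, 96.8 and 133 CPM in HAT1 WT and 119.5, 93.6 and 130.0 CPM in HAT1 KO lines, with the genotypes interleaved and a log2 fold change of 0.12 (SE 0.19), at an edgeR adjusted p of 0.824. Lgr5, known as a stem cell marker of gut and hair follicle, lies at chr10:115450311-115587780 and stood at 73.9, 81.7 and 351 CPM in HAT1 WT and 303, 134 and 29.2 CPM in HAT1 KO lines. WT line 78 and KO line 33 were high, KO line 72 was low, and each genotype held both high and low lines. Its log2 fold change came to -0.12 (SE 0.93) with an edgeR adjusted p of 0.966; it was 0.39 without KO line 72 and 1.01 without WT line 78.

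The 3 tested R-spondin ligand genes, Rspo1, Rspo2 and Rspo3, were highest in KO line 72, where Lgr5 was lowest. Rspo3 stood at 7.97, 4.99 and 4.84 CPM in HAT1 WT and 13.5, 5.104 and 20.9 CPM in HAT1 KO lines, Rspo2 at 26.04, 13.9 and 9.15 CPM in HAT1 WT and 8.67, 10.4 and 47.5 CPM in HAT1 KO lines, and Rspo1 at 0.292, 0.298 and 0.667 CPM in HAT1 WT and 0.359, 0.385 and 2.02 CPM in HAT1 KO lines. KO line 33 was second for Rspo3, within the HAT1 WT range for Rspo1 and just below it for Rspo2. KO line 41 was within the HAT1 WT range for all 3. The log2 fold changes were 1.15 (SE 0.50), 0.44 (SE 0.74) and 1.13 (SE 0.79), with edgeR adjusted p of 0.365, 0.827 and 0.562. Without KO line 72 they were 0.67, -0.77 and -0.17, so the sign turned for Rspo2 and Rspo1. Of their exon bases, 13.1% in Rspo3 and, among the antagonists, 16.1% in Sfrp2 are shared with a gene on the opposite strand. Lgr6 was 3.80 to 5.94 CPM in 5 lines and 14.6 CPM in KO line 41. Over all 6 lines, 5 of the 6 tested genes of this group had a positive log2 fold change, against 51.5% of all genes, with a median of 0.72.

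The effector and feedback genes report how strongly the beta-catenin branch is read out, since Axin2, Lef1, Nkd1 and Notum are widely used as its target genes. Axin2, a scaffold of the complex that destroys beta-catenin, stood at 10.4, 9.08 and 10.8 CPM in HAT1 WT and 9.58, 11.1 and 14.2 CPM in HAT1 KO lines, with a log2 fold change of 0.21 (SE 0.17) and an edgeR adjusted p of 0.616. The genotypes overlapped and KO line 72 was highest. Lef1 (chr3:131110471-131224356) was low, at 1.96, 1.53 and 0.768 CPM in HAT1 WT and 1.999, 2.25 and 2.72 CPM in HAT1 KO lines, and was the only tested member past 1.5-fold whose genotypes did not overlap. KO line 33 was only just above WT line 36, and WT line 78 was lowest. Its log2 fold change came to 0.71 (SE 0.37), with an edgeR adjusted p of 0.436, and leaving out 1 line gave values from 0.42 without WT line 78 to 1.02 without WT line 36. It was 1.01 with lane as a factor, where WT line 36, alone in its lane, does not bear on the difference. Against WT line 78 alone, without WT lines 36 and 47, it was 1.61. The gene Gm43352 on the opposite strand shares 13.7% of the exon bases of Lef1.

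Nkd1 and Nkd2 encode paralogous proteins that bind Dishevelled and dampen the signal. Nkd2 stood at 22.3, 18.4 and 25.8 CPM in HAT1 WT and 21.9, 13.8 and 67.4 CPM in HAT1 KO lines and Nkd1 at 14.2, 13.97 and 20.7 CPM in HAT1 WT and 16.9, 20.9 and 6.17 CPM in HAT1 KO lines. KO line 72 was highest for Nkd2 and lowest for Nkd1, whereas KO line 41 was lowest for Nkd2 and highest for Nkd1. The log2 fold changes were 0.63 (SE 0.57) and -0.16 (SE 0.43), with edgeR adjusted p of 0.656 and 0.898, and without KO line 72 they were -0.29 and 0.22. Tcf7, which encodes a partner of beta-catenin on DNA, was 0.798 CPM in WT line 78 and 1.36 to 3.09 CPM in the other lines. Notum, which encodes an enzyme that strips the lipid from Wnts, was 0.651 to 2.09 CPM, highest in KO line 72, and 29.4% of its exon bases are shared with Notumos on the other strand.

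Genotypes did not overlap for 3 of the 44 members, Wnt5a, Porcn and Lef1, against 22% of all tested genes. In all 3 the HAT1 KO lines were above, which held for 9.59% of all genes, and in none were they below. The spread over the 6 lines was wide for many members. The highest line was at least 3 times the lowest for 19 of 44 members, against 17.7% of all genes, and the median ratio of highest to lowest line was 2.31 for members and 1.45 for all genes. By role the median ratio was 7.75 for antagonists, 4.89 for R-spondins and LGRs, 3.54 for effectors, 1.85 for ligands and 1.53 for receptors. The part of low counts in these ratios was not tested.

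**Figure D4:**
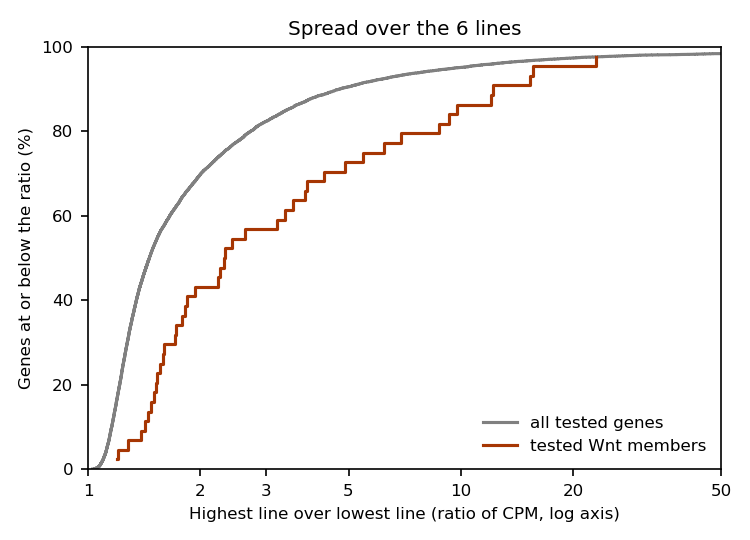
The cumulative percentage of genes is drawn against the ratio of the highest to the lowest of the 6 lines in CPM on a log axis, in grey for all 14773 tested genes and in brown for the 44 tested members, with Wnt6, at 0 in 1 line, counted beyond the axis. The brown curve lies to the right, with a median ratio of 2.31 against 1.45.

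KO line 72 held much of that spread. It was the highest of the 6 lines for 17 members (26% of all genes) and the lowest for 13 (25.4%), and so at one end for 30 of 44, against 51.5% of all genes. It lay at least 2-fold from the median of the other 5 lines for 18 members (40.9%), against 13.6% of all genes. WT line 78 was highest for 8 members and lowest for 10, close to the shares of all genes for which it was highest (20.5%) and lowest (20%). Without KO line 72, 11 members kept a ratio of 3 or more, against 11.6% of all genes, and the median ratio was 1.72 against 1.35. The sign of the log2 fold change turned without KO line 72 for 18 of the 44 members.

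The members that were low in KO line 72 included Sfrp1, Ror1, Sfrp4, Lgr5 and Nkd1, and those that were high included Rspo1, Wif1, Rspo2, Wnt10b, Rspo3 and Nkd2. The macrophage sum was lowest in KO line 72, at 2326 CPM against 2650 and 2857 CPM in KO lines 33 and 41. Each macrophage marker except Itgam and Tyrobp was lowest in KO line 72. Of the 8 fibroblast markers, 6 were lowest in KO line 72, where 25.4% of all genes were lowest. The exceptions were Pdgfrb (lowest in WT line 47) and Lum (lowest in WT line 36). The fibroblast sum, most of it Col1a1 and Col1a2, was also lowest in KO line 72. Cartilage markers summed to 13.3 CPM in KO line 72 and 17.6 CPM in WT line 78, against 48.9 to 151 CPM in the other 4 lines. The part of the cell make-up of the cultures in these values was not tested.

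**Figure D5:**
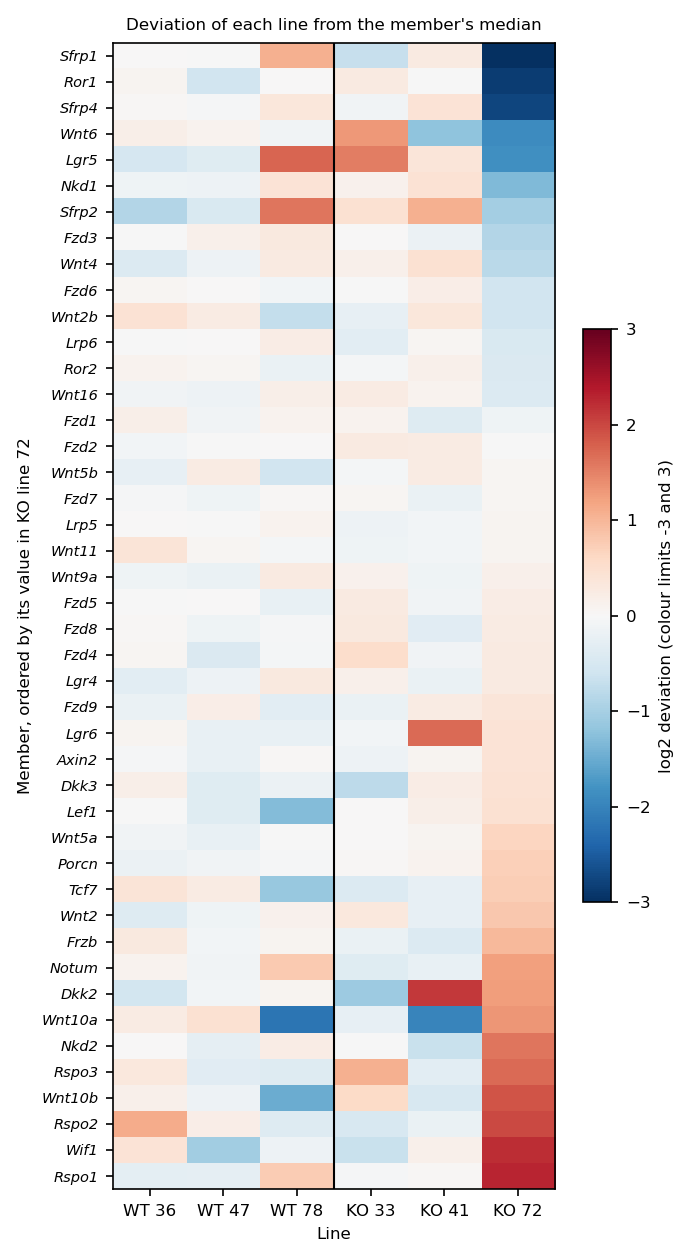
Colours give, for each tested member and line, log2(CPM + 0.05) minus the member's median over the 6 lines, in red for above and blue for below, with members ordered by KO line 72. That line holds the strongest blues (Sfrp1, Ror1, Sfrp4) and many of the strongest reds (Rspo1, Wif1, Rspo2), and Lgr5 and Sfrp2 are red in WT line 78.

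Of 62 other pathway genes on a list of components outside the rule, 60 were analysed here and 59 had enough counts for a test. None passed an adjusted p of 0.05 in edgeR, DESeq2 called Tle1 and Ryk among 871 of 14773 genes, and voom called Tle1 among 267. At an unadjusted edgeR p under 0.05 there were 4 of 59, against 14.6% of all genes. Genotypes did not overlap for 8 of 59, against 22% of all genes. By the threshold of the study 2 were lower (Tle1 and Draxin, 4.62% of all genes) and 1 was higher (Dact2, 1.5% of all genes). Their spread was narrower than that of the members, with a median ratio of highest to lowest line of 1.29 against 2.31. A 95% interval within 1.5-fold was found for 43 of 59, against 52.9% of all genes.

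Tle1, which encodes a Groucho-type corepressor that binds TCF and LEF factors, stood at 34.3, 30.1 and 27.6 CPM in HAT1 WT and 17.4, 17.5 and 19.9 CPM in HAT1 KO lines. Every HAT1 KO line was below every HAT1 WT line, KO line 72 included, with a log2 fold change of -0.75 (SE 0.11) and an edgeR adjusted p of 0.0584. Ryk, which encodes a Wnt-binding receptor outside the frizzled family, stood at 176, 183 and 178 CPM in HAT1 WT and 209, 212 and 216 CPM in HAT1 KO lines, all HAT1 KO lines above all HAT1 WT lines, with a log2 fold change of 0.25 (SE 0.056) and an edgeR adjusted p of 0.144. The other 2 were rare. Dact2, a Dishevelled-binding inhibitor gene, stood at 0.186, 0.174 and 0.141 CPM in HAT1 WT and 0.449, 0.355 and 0.389 CPM in HAT1 KO lines, with the genotypes apart, a log2 fold change of 1.25 (SE 0.31) and an edgeR adjusted p of 0.1699. Draxin, a gene for a secreted axon guidance protein that antagonises Wnts, stood at 1.88, 1.48 and 2.73 CPM in HAT1 WT and 1.404, 0.7397 and 1.11 CPM in HAT1 KO lines, with KO line 33 just below the lowest HAT1 WT line, a log2 fold change of -0.90 (SE 0.35) and an edgeR adjusted p of 0.314.

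The most abundant of these components per length were Gpc4, Ctnnb1, Ptk7, Wls and Ryk. Ctnnb1, the beta-catenin gene, stood at 736, 685 and 666 CPM in HAT1 WT and 697, 711 and 684 CPM in HAT1 KO lines, with a log2 fold change of 0.0042 (SE 0.072). Its 95% interval was -0.17 to 0.18. Ptk7, a polarity co-receptor gene, stood at 704, 669 and 676 CPM in HAT1 WT and 642, 609 and 778 CPM in HAT1 KO lines, and Gpc4, a cell-surface glypican gene, at 458, 399 and 408 CPM in HAT1 WT and 429, 359 and 545 CPM in HAT1 KO lines. Wls, whose product carries Wnts to the cell surface, stood at 606, 530.1 and 505 CPM in HAT1 WT and 457, 554 and 369 CPM in HAT1 KO lines. The genotypes overlapped for all 3, with KO line 72 highest for Ptk7 and Gpc4 and lowest for Wls. Their log2 fold changes were -0.014 (SE 0.11), 0.076 (SE 0.16) and -0.25 (SE 0.16), with edgeR adjusted p of 0.964, 0.866 and 0.521.

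Widely used beta-catenin targets outside the rule were listed as well, and 10 were analysed here. None passed an unadjusted edgeR p of 0.05 (lowest 0.1096, for Ccnd1), and 6 had a positive and 4 a negative log2 fold change. Ccnd1, the cyclin D1 gene, stood at 205, 196 and 183 CPM in HAT1 WT and 188, 239 and 419 CPM in HAT1 KO lines, with KO line 33 inside the HAT1 WT range and KO line 72 far above it. Its log2 fold change came to 0.53 (SE 0.29). Myc, by contrast, was even, at 38.1, 41.2 and 38.05 CPM in HAT1 WT and 44.4, 41.1 and 40.4 CPM in HAT1 KO lines.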

How the data were processed

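Counts of reads were deposited as the authors made them, 1 raw count a gene and library. The submitters' processing notes name mm10 and edgeR. The aligner, counter, annotation and use of strand are not given in the sources used here. The deposited table also held the authors' own comparison (log2 fold change, log2 mean CPM, F, p-value and q-value), which was not used. Of counts from 1 to 10, 75.1% were even, so low counts may hold read pairs counted as 2; halving all counts was one alternative. All 17512 Ensembl identifiers matched GENCODE M21 on GRCm38, which gave exon lengths and overlaps.

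Genes were kept by filterByExpr (14773 of 17512), scaled by TMM and tested with edgeR 4.0.16 in R 4.3.3 (glmQLFit and glmQLFTest, genotype alone, two-sided), with Benjamini-Hochberg adjustment over all tested genes and a threshold of 0.05. The SE, an approximation, divides the log2 fold change by the root of F. DESeq2 1.42.0, voom with sample weights (limma 3.58.1), other scalings and filters, lane as a factor, and leaving out lines were alternatives. In a simulation of this comparison with 196 of 14540 tested genes changed by 1.5 log2 units, edgeR recovered 64.8% with 6.62% of its calls false, DESeq2 80.6% with 32.5% false and voom 64.3% with 5.97% false. With 3 against 3 lines an exact permutation test cannot go below p = 0.1.

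Members and lists were chosen with earlier results of these data known. Given with values in every line were members with an unadjusted p under 0.05, the 2 of highest CPM per kb in each role, those past 1.5-fold with no overlap, and the 5 of largest ratio between lines; of the other pathway genes, those past the study's threshold and the 5 of highest CPM per kb. Porcn, Lrp5, Lrp6, Ror1, Dkk2, Sfrp2, Sfrp4, the R-spondin genes, Lgr6, Axin2, Notum, Wnt6, Myc and the genes at the ends of a range were added after their values were seen.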

Additional observations from a re-analysis of the deposited data

How the results depend on the processing

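No member passed an adjusted p of 0.05 under any alternative. The count of members lower past 1.5-fold at an unadjusted p under 0.05 was 0 over all lines and 0 to 2 when 1 line was left out (2 without KO line 33, Fzd3 and Wnt6). The count higher was 0, against 2 with DESeq2's Wald test (Rspo3 and Lgr6) and 0 to 3 when 1 line was left out (3 without KO line 41). The count of members with a positive log2 fold change was 30 of 44, against 24 of 44 with voom. It was 26 to 30 of 44 when 1 line was left out, with the lowest count without WT line 47. Of the other pathway genes, 0 were called at an adjusted p under 0.05, against 2 with DESeq2 and 1 with voom. Those lower past 1.5-fold were 2, against 1 with voom and with lane as a factor, and 1 to 2 when 1 line was left out. With no filter on low counts they were 3, Kremen2 being added. Those higher were 1, against 2 with DESeq2, 0 with a mean of at least 50 counts (Dact2 is below it), and 1 to 2 when 1 line was left out. The Hat1 log2 fold change was -1.08 to -0.88 when 1 line was left out, -0.97 without WT lines 36 and 47 and -1.10 with lane as a factor, with adjusted p above 0.05 in each. The cause was not tested.

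The log2 fold change changed sign for 12 members with voom, which gave KO line 72 a weight of 0.346: it was -0.029 for Nkd2, -0.51 for Rspo2, -0.020 for Dkk3, -0.23 for Frzb, -0.0047 for Fzd7, -0.87 for Wnt10a, -0.27 for Tcf7, 0.12 for Nkd1, -0.24 for Notum, 0.88 for Sfrp2, 0.64 for Lgr5 and -0.98 for Wnt6. Without WT lines 36 and 47 it was 0.030 for Wnt11, -0.20 for Lgr4, -0.20 for Wnt9a, 0.12 for Ror2, 0.64 for Wnt2b, -0.033 for Fzd7, -0.23 for Wnt4, -0.16 for Wnt16 and -0.39 for Notum, and with lane as a factor -0.016 for Lgr4, 0.051 for Wnt2b, -0.044 for Notum and -0.41 for Wnt6. No sign changed with DESeq2's size factors or Wald test, library size alone, either filter or halved counts. When 1 line was left out, the sign changed for 22 members, whose values ran from -0.068 to 1.93 for Wif1, -0.17 to 1.64 for Rspo1, -0.29 to 1.01 for Nkd2, -1.03 to 0.055 for Sfrp4, -0.77 to 0.94 for Rspo2, -0.087 to 0.43 for Dkk3, -0.026 to 0.23 for Wnt9a, -0.39 to 0.40 for Frzb, -0.27 to 0.10 for Fzd6, -0.22 to 0.070 for Ror2 and -0.45 to 0.058 for Wnt2b. For the rest they ran from -0.022 to 0.11 for Fzd7, -0.79 to 0.90 for Wnt10a, -0.30 to 0.42 for Tcf7, -0.18 to 0.40 for Wnt4, -0.49 to 0.22 for Nkd1, -0.69 to 0.28 for Ror1, -0.11 to 0.21 for Wnt16, -0.65 to 0.42 for Notum, -0.61 to 1.08 for Sfrp2, -1.04 to 1.01 for Lgr5 and -3.21 to 0.65 for Wnt6. The cause was not tested. Leaving out KO line 72 in the count of ratios, and every alternative for the count of positive values, were chosen after seeing the data. No paired analysis was possible because the genotypes share no replicate numbers.

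With 3 lines a genotype, 33 of 44 members had intervals that reached 1.5-fold, so an absent call does not show equal levels. Depth limits the 7 untested members, with at most 12 counts in any library.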

Other observations

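Rnf43 and Znrf3, the paired ubiquitin ligase genes that remove frizzled receptors and are held in check by R-spondins, differed in their evenness. Rnf43 stood at 0.955, 0.522 and 0.283 CPM in HAT1 WT and 0.202, 1.33 and 7.86 CPM in HAT1 KO lines. It was high in KO line 72 alone, where Rspo1, Rspo2 and Rspo3 were also highest, and its log2 fold change was 2.42 (SE 1.23) with an edgeR adjusted p of 0.428. Znrf3 stood at 25.5, 24.4 and 26.6 CPM in HAT1 WT and 23.5, 25.2 and 26.9 CPM in HAT1 KO lines, with the genotypes overlapping and an edgeR adjusted p of 0.946. Gpc3, the gene of a glypican that tunes Wnt and hedgehog signals, stood at 49.1, 36.1 and 31.5 CPM in HAT1 WT and 31.3, 41.5 and 5.37 CPM in HAT1 KO lines, so that KO line 72 was low as for Ror1 and Sfrp1. These genes were picked after their values were seen, and no relation between them was tested.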
